A study of Mus musculus with 6 samples.

Results

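The numbered Zfp genes are the mouse genes whose symbol is Zfp followed by a number, and most of them code for classical zinc finger proteins. Of 380 such symbols in the count table, Zfp36, which binds AU-rich RNA, and Zfp683, the T cell regulator Hobit, were set aside. Of the remaining 378, the 145 genes with a mean of at least 10 CPM (counts scaled to an equal library total) over the 6 libraries are described here, 218 others had counts below that minimum and 15 had none. The genes were chosen by their mean level over both treatments, a rule that does not use the difference between treatments, although the group itself was picked with earlier results of these data known. Just inside the minimum lay Zfp568 at 10.1 CPM and Zfp764 at 10.03 CPM, and just outside lay Zfp97 at 9.99 CPM and Zfp53 at 9.94 CPM. All 145 passed the filter on low counts. The median member had a mean of 23.0 CPM, and Zfp106 had the highest at 185 CPM. Translated coding sequences of 144 members held a median of 9 finger motifs and at most 36, in Zfp142. Zfp839, Zfp703 and Zfp330 held 0.

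Tumor γδ T cells came from Kit V558del/+ mice, in which a mutation keeps the receptor tyrosine kinase Kit active and which develop an intestinal GIST, a tumor of the interstitial cells of Cajal. The mice were on a C57BL/6J background and 8 to 10 weeks old, and every library of both groups carries the mutation. In the imatinib group (3 libraries) the KIT inhibitor imatinib was given at 600 mg/L in drinking water for 1 week, and the vehicle group (3 libraries) received vehicle. According to the study, cells were sorted as CD45+CD3+NK1.1-TCRγδ+ from tumor, whereas the description of the series names regulatory T cells, and the name γδ T cells follows the study. The comparison addresses what early imatinib treatment does to RNA of the sorted material, which also held markers of other cells, given below. All libraries were treated as 1 batch. The labels do not tell whether libraries came from separate mice, so a p-value reflects only how much libraries vary.

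A classical zinc finger is a short loop held by a zinc ion between cysteine and histidine residues, and arrays of such fingers read DNA sequence. Many Zfp proteins also carry a KRAB domain, which recruits the co-repressor TRIM28 (KAP1) and through it the histone H3 lysine 9 methyltransferase SETDB1, and these proteins are known for silencing retroelements and guarding imprinted loci. Others bind RNA, ribosomes or promoters and have no KRAB domain.

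Promoter sequences are shown for Zfp263, Zfp598 and Zfp715, which were the first 3 of the genes lower on imatinib, ordered by p, with a single RefSeq promoter that ends at the edge of the gene. Each is the 250 bases before the transcription start, written toward the gene (RefSeq, GRCm38.p6). They lie at chr16:3743849-3744098 on the plus strand for Zfp263, chr17:24669437-24669686 on the plus strand for Zfp598 and chr7:43313301-43313550 on the minus strand for Zfp715. Capitals mark a CCAAT box, the NF-Y motif, and an ETS core, CCGGAAG.
Zfp263: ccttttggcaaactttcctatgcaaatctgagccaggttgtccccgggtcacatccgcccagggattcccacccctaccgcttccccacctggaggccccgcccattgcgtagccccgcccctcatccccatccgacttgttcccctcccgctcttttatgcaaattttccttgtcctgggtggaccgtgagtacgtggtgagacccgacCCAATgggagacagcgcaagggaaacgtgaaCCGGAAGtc
Zfp598: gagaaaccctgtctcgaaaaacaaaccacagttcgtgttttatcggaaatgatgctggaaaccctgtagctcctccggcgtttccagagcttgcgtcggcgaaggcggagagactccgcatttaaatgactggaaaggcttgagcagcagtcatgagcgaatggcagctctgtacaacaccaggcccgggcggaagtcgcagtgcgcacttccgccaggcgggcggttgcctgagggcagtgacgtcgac
Zfp715: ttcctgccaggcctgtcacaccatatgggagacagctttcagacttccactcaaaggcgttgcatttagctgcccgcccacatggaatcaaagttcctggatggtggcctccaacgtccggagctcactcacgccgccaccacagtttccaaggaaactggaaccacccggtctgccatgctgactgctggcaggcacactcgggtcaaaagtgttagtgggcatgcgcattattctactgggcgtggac
In the Zfp263 promoter the CCAAT box began at base -40 and the ETS core at base -9 from the start. The other 2 held none of the 5 motifs searched on both strands, and the 3 promoters held 14, 20 and 10 CpG dinucleotides, in the order shown. Of the 112 members with a RefSeq promoter, 15.2% held CCGGAAG, against 7.05% of 27025 mouse promoters of the same length. CCAAT was found in 47.3% of members and 34.5% of all promoters, TATAAA in 6.25% and 12.97%, ACTACAA, the core bound by ZNF143, in 4.46% and 2.98%, and GAAANNGAA, the core of the interferon-stimulated response element, in 5.36% and 7.16%. Among the 18 promoters of members lower on imatinib the shares were 16.7%, 44.4%, 0%, 5.56% and 5.56% in the same order. Members had a median of 13 CpG per promoter, the lower members 13.5 and all promoters 6. None of the motifs is contained in another, and a match describes sequence only.

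The libraries held 21333897 to 25214210 counts of named genes. Trdc, the constant segment of the δ receptor chain, was at 373 to 1237 CPM scaled by TMM, the scale of all levels below, which adjusts library totals for composition. Summed markers of GIST and interstitial cells of Cajal, fibroblasts, dendritic cells and αβ T cells did not overlap between the groups. Those of GIST and interstitial cells of Cajal ranged from 25.5 to 29.9 on vehicle and from 77.1 to 282 on imatinib (3 genes, 2 higher), and those of fibroblasts from 67.3 to 230.4 and from 330 to 650 (6 genes, none called). The dendritic cell sum ranged from 726 to 1027 and from 339 to 716 (4 genes, none called), carried by Itgax (log2 fold change -0.92), while Flt3, Zbtb46 and Xcr1 lay at 0.57, 0.37 and 0.18. The sums overlapped for neutrophils at 89.9 to 131 and 115 to 360.1 (6 genes, none called). Those of epithelium did too, at 71.6 to 176 and 115 to 311 (4 genes, none called), as did macrophages at 9709 to 12697 and 5830 to 10871. Of 8 macrophage genes, 2 were called higher, Mrc1 and Lyz2 (log2 fold changes 0.73 and 0.77). The others lay below 0 without a call, and the median of the 8 was -0.48. B and plasma cell markers were at 690 in vehicle 3 and at 3329 to 5526 in the other libraries. The γδ T cell markers were at 804 to 1465 on vehicle and 1715 to 2430 on imatinib (5 genes, 3 higher), those of αβ T cells at 346 to 364 and 432 to 533 (6 genes, 3 higher), and mast cell markers were at or near 0. Of the αβ T cell genes, Trac, Trbc1 and Trbc2 were called higher. Cd4, Cd8a and Cd8b1 lay at log2 fold changes of -0.27, -1.31 and -1.24 without a call. In every library the macrophage sum was above the γδ T cell sum, so the values below describe the sorted material as a whole. The part of these other cells in the results below was not tested, and in bulk RNA fewer cells of a type and less RNA per cell cannot be told apart.

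Zfp genes were lower on imatinib in 25 of 145 cases and higher in 0 (edgeR quasi-likelihood test, adjusted p under 0.05 over all genes), while 120 did not pass the test. Across the 16621 genes tested, 8.42% were lower and 6.15% higher. Among the 9492 tested genes that met the same minimum of 10 CPM, 11.3% were lower and 8.57% higher, against 17.2% and 0% of Zfp genes. At an unadjusted p under 0.05, 47 Zfp genes were lower and 6 higher, and DESeq2 called 1 gene higher (Zfp462) as did limma voom (Zfp706). The median log2 fold change of imatinib minus vehicle was -0.18 over the 145 genes, with quartiles of -0.44 and 0.01 and a range from -1.01 to 0.87. The median was 0.01 over all genes tested and -0.0029 over those of at least 10 CPM. In all, 108 of the 145 genes (74.5%) lay below 0, as did 50.3% of genes at the same minimum. Every imatinib library was below every vehicle library for 53 Zfp genes (36.6%, against 23.4% of genes at that minimum) and above for 7 (4.83%, against 20.8%).

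**Figure D1:**
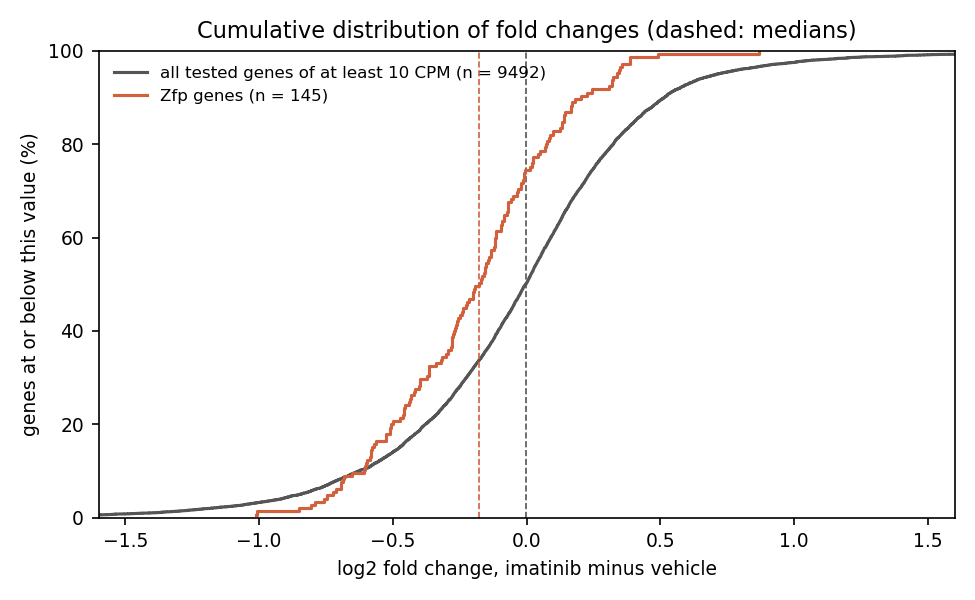
Cumulative share of genes (%, vertical axis) at or below each log2 fold change of imatinib minus vehicle (horizontal axis), for the 145 Zfp genes and the 9492 tested genes of at least 10 CPM. The Zfp curve lies to the left around the middle of the range, with a median of -0.18 against -0.0029, and the curves meet toward the most negative values.

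The levels of all 145 genes, added up per library, were 4804, 4996 and 4869 CPM on vehicle and 4080.4, 4125 and 4311 CPM on imatinib, with no overlap between the groups. The means were 4889.5 ± 97.4 and 4172 ± 122 (SD, n = 3). The 25 lower genes accounted for 1225 ± 50.6 CPM of this sum on vehicle and 795 ± 45.2 on imatinib, and the 120 others for 3665 ± 83.5 and 3378 ± 79.5. Malat1, Neat1 and Kcnq1ot1, long noncoding RNAs that stay in the nucleus, summed to 400, 479 and 340 CPM on vehicle and 131, 111 and 128 CPM on imatinib, and all 3 were lower (for Malat1 a log2 fold change of -1.86). Both sums were thus lower in the imatinib group. The part of nuclear RNA content in the Zfp values was not tested. Against the vehicle mean, the median Zfp gene was at -0.17 in imatinib 1, -0.21 in imatinib 2 and -0.14 in imatinib 3 on the log2 scale. The within-group coefficient of variation of the median Zfp gene was 8.92% on vehicle and 13.5% on imatinib.

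**Figure D2:**
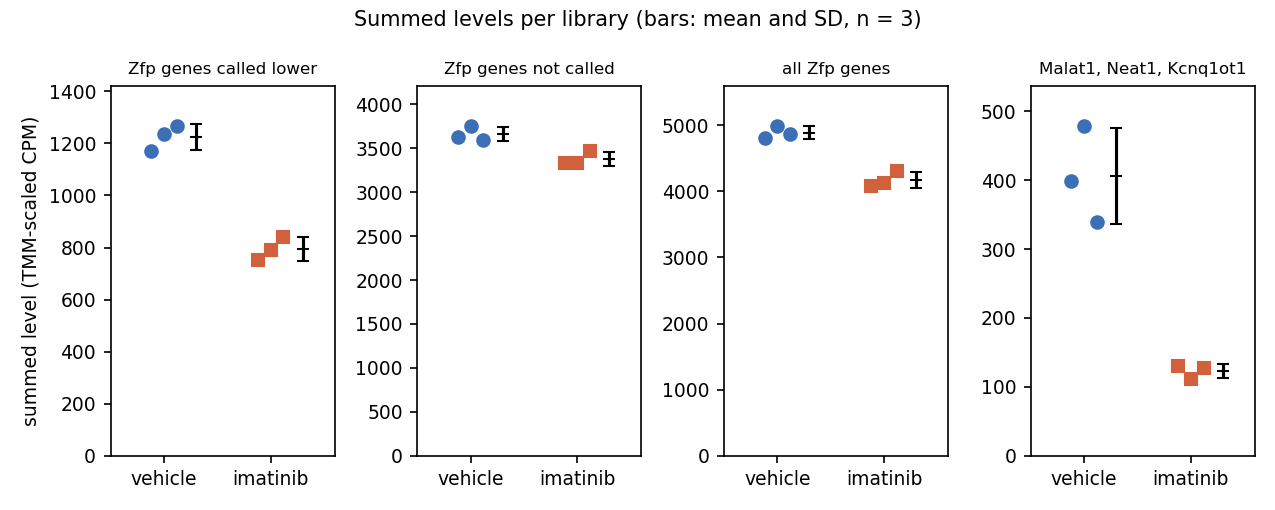
Summed level per library (TMM-scaled CPM, vertical axes from 0) of the 25 Zfp genes called lower, the 120 not called, all 145, and the 3 nuclear RNAs, with 1 point per library and the mean and SD of each group beside it. In each panel the 3 imatinib libraries lie below the 3 vehicle libraries, with means of 4172 against 4889.5 for all Zfp genes and 123 against 406 for the nuclear RNAs.

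The smallest p belonged to Zfp398, a KRAB gene on chromosome 6 from 47835661 to 47873537 (GRCm38, plus strand). It was at 40.0, 37.2 and 39.4 CPM on vehicle and at 23.2, 21.5 and 24.3 on imatinib, and fell (log2 fold change -0.76, standard error, SE, of 0.11, adjusted p = 0.00734). The 2 groups lay far apart compared with their spread. Zfp263, whose human counterpart binds purine-rich DNA in promoters, lies on chromosome 16 from 3744093 to 3750790. Its levels were 58.6, 67.7 and 68.3 CPM on vehicle and 35.9, 41.3 and 38.8 on imatinib (log2 fold change -0.75, SE 0.11, adjusted p = 0.00813). Its promoter is the one above with the CCAAT box and the ETS core. Zfp598 codes for a ubiquitin ligase that, from work on its human counterpart, marks collided ribosomes, and lies on chromosome 17 from 24669687 to 24682016. Its vehicle libraries were almost equal at 57.8, 57.6 and 57.4 CPM, and imatinib gave 39.1, 36.6 and 41.3 (log2 fold change -0.56, SE 0.10, adjusted p = 0.0132). Zfp691, on chromosome 4 from 119169513 to 119174195, fell from 61.8, 66.9 and 62.5 CPM to 34.4, 39.8 and 44.0 (log2 fold change -0.69, adjusted p = 0.0115). The fall of Zfp691 was seen in every imatinib library and least in imatinib 3.

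Zfp810 and Zfp276 had the largest falls among the 25, the only ones past a log2 fold change of -1. The KRAB gene Zfp810, on chromosome 9 from 22276748 to 22307648, was at 40.0, 40.6 and 60.4 CPM on vehicle and 19.9, 23.0 and 27.0 on imatinib (log2 fold change -1.01, SE 0.19, adjusted p = 0.0148). Vehicle 3 stood above the other vehicle libraries for this gene. Zfp276 was at 22.9, 31.3 and 26.1 CPM on vehicle and 13.1, 12.8 and 14.03 on imatinib (log2 fold change -1.01, SE 0.15, adjusted p = 0.00811). An antisense gene overlaps 19.4% of its exon bases, and without a stated strand setting reads of the 2 cannot be told apart. Zfp384, an architectural factor of the nuclear matrix also called Nmp4 or CIZ, was at 84.1, 91.1 and 87.6 CPM on vehicle and 59.6, 62.5 and 60.1 on imatinib (log2 fold change -0.53, adjusted p = 0.0123). Zfp704 was at 36.1, 34.0 and 36.8 CPM on vehicle and 19.3, 24.04 and 23.2 on imatinib (log2 fold change -0.68, adjusted p = 0.0138). Both fell without overlap of the groups. The KRAB gene Zfp871 fell from 64.2, 73.4 and 74.1 CPM to 49.0, 42.8 and 49.1 (log2 fold change -0.59, adjusted p = 0.0146).

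**Figure D3:**
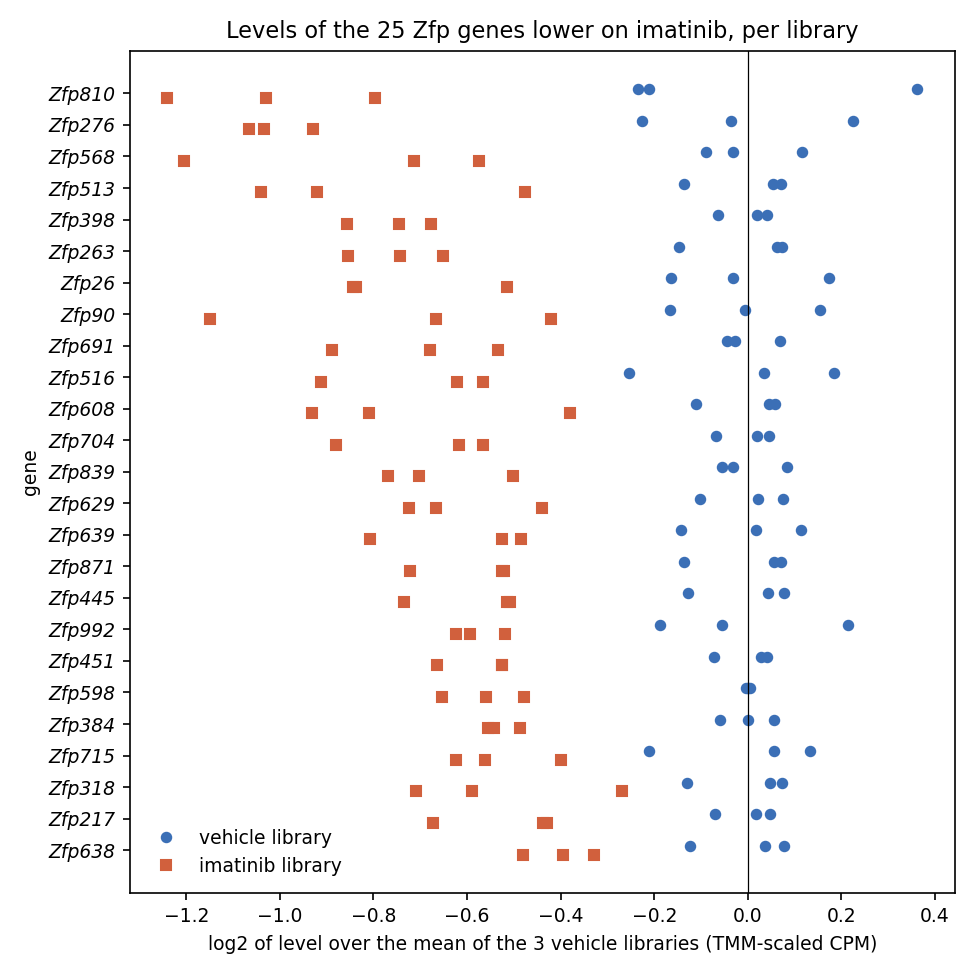
Level of each of the 25 Zfp genes called lower, as the log2 of its TMM-scaled CPM over the mean of the 3 vehicle libraries (horizontal axis), with 1 circle per vehicle and 1 square per imatinib library and genes ordered by fold change. In each row all imatinib squares lie left of all vehicle circles, from Zfp638 at a log2 fold change of -0.40 to Zfp810 at -1.01.

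After Zfp445, given with its role, the remaining 15 called genes had log2 fold changes from -0.81 to -0.40, and those named next without a role list were chosen after their values were seen. Zfp451, a SUMO ligase that acts on topoisomerase 2 complexes, was at 31.5, 34.0 and 33.7 CPM on vehicle and 23.0, 20.9 and 23.0 on imatinib (log2 fold change -0.57, adjusted p = 0.0168). Zfp513 went from 36.2, 41.3 and 41.8 CPM to 19.3, 21.02 and 28.6 (log2 fold change -0.79, adjusted p = 0.0183). Zfp516, which activates thermogenic genes in brown fat, went from 67.6, 55.3 and 74.9 CPM to 35.0, 42.8 and 44.6 (log2 fold change -0.69, adjusted p = 0.0199). These 3 fell in each imatinib library. Zfp608, a repressor of Rag recombinase genes in mouse thymocytes, averaged 28.4 ± 1.80 CPM in vehicle and 17.6 ± 3.67 in imatinib libraries (SD, n = 3, log2 fold change -0.69, adjusted p = 0.0297). Zfp839, Zfp26, Zfp639, Zfp715, Zfp992 and Zfp90 were at -0.65, -0.72, -0.60, -0.52, -0.58 and -0.71 on the log2 fold scale (adjusted p = 0.0167, 0.0181, 0.0299, 0.038, 0.0248 and 0.038).

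Most of these calls were lost in at least 1 of the fits that left out 1 library, in which calls over all genes changed too. Of the 25, 6 (Zfp263, Zfp276, Zfp398, Zfp598, Zfp691 and Zfp810) were called in each of the 6 fits that left out 1 library. The count of lower Zfp genes fell to 15 when vehicle 1 was left out, to 8 for vehicle 2, to 7 for vehicle 3, to 19 for imatinib 1 and to 16 for imatinib 3, and was 28 when imatinib 2 was left out. In the same order, lower calls over all genes went from 1399 to 627, 507, 503, 1009 and 579, and were 1780 without imatinib 2. The median log2 fold change of the Zfp genes lay between -0.23 and -0.17 in these fits. After correction of every library for transcript length and GC, 15 were lower and 1 higher around a median of -0.11. All genes then had a median of 0.05, with 973 lower and 908 higher. Scaled to the counts of Cd3d, Cd3e and Cd3g, 75 were lower around a median of -0.90, and all genes shifted to a median of -0.72, with 4678 lower and 135 higher.

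By role, the 3 measured members known for silencing retroelements or imprinted genes all had levels below vehicle in each imatinib library, which held for 36.6% of the Zfp genes and 23.4% of genes at the same minimum. Zfp445, which guards imprinted loci, fell from 67.6, 77.9 and 76.1 CPM to 51.7, 44.4 and 51.9 (log2 fold change -0.58, adjusted p = 0.0152). Zfp568, which represses a placental transcript of Igf2, fell from 13.9, 12.04 and 12.5 CPM to 5.56, 7.82 and 8.60 (log2 fold change -0.81, adjusted p = 0.0376). Zfp809, which binds the primer binding site of murine leukemia virus, did not pass the test, at 27.0, 27.3 and 24.2 CPM on vehicle and 18.9, 18.6 and 23.3 on imatinib (log2 fold change -0.37, adjusted p = 0.109). The imatinib library nearest to vehicle for Zfp809 was imatinib 3.

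Lower calls made up 17.2% of all Zfp genes and 11.3% of genes at the same minimum, of which 8.57% were higher. Among 17 regulators of promoters and chromatin, 4 (23.5%) fell and 0 rose, with a median of -0.32. Besides Zfp263, Zfp516 and Zfp608 these included Zfp217, part of the CoREST and LSD1 complex in human cells, which fell from 126, 116 and 124 CPM to 76.5, 90.0 and 90.6 (log2 fold change -0.51, adjusted p = 0.0194). Zfp592 averaged 102 ± 7.73 CPM in vehicle and 83.1 ± 13.2 in imatinib libraries (SD, n = 3, log2 fold change -0.30, adjusted p = 0.159). Zfp335, which mouse T cells need for maturation, was at 36.3 ± 5.51 and 28.1 ± 6.05 (log2 fold change -0.37, adjusted p = 0.203), with overlapping groups. Zfp219 and Zfp143, an activator of many housekeeping promoters, were at -0.03 and -0.13 in log2 fold change (adjusted p = 0.874 and 0.575). Zfp462, chosen after its values were seen, had the highest log2 fold change of the 145 genes and did not pass the test (0.87, SE 0.31, adjusted p = 0.0952). It was at 12.7, 14.9 and 9.43 CPM on vehicle and 31.4, 13.7 and 22.4 on imatinib, so imatinib 2 lay within the vehicle range.

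Of 5 RNA-binding members, 2 fell (40%, against 17.2% of all Zfp genes and 11.3% of genes at the same minimum). Zfp638, known as NP220, which acts in silencing of unintegrated retroviral DNA, was at 85.3, 87.8 and 76.4 CPM on vehicle and 59.7, 66.3 and 63.3 on imatinib (log2 fold change -0.40, adjusted p = 0.0369). Zfp318, which in mouse B cells allows the long transcript of IgD to be made, fell from 39.4, 45.3 and 44.6 CPM to 28.7, 26.4 and 35.8 (log2 fold change -0.51, adjusted p = 0.0451). B and plasma cell markers summed to 4499, 3329 and 690 CPM on vehicle and 4244, 5526 and 4362 on imatinib, and their part in the Zfp318 value was not tested. Zfp106, an RNA-binding protein of neurons and muscle, was at 205, 196 and 201 CPM on vehicle and 160.3, 174 and 172 on imatinib, apart from vehicle in each library but not past the test (log2 fold change -0.25, adjusted p = 0.109). Zfp830 and Zfp346 were at -0.17 and -0.12 in log2 fold change (adjusted p = 0.563 and 0.701).

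No Zfp gene rose in the edgeR test, and 2 role-listed genes lay near its threshold. Zfp706 was at 70.3, 71.3 and 61.0 CPM on vehicle and 85.0, 86.7 and 85.6 on imatinib (log2 fold change 0.34, SE 0.10, adjusted p = 0.0546). Zfp622, an assembly factor of the large ribosomal subunit, was at 51.9, 49.6 and 44.1 CPM on vehicle and 58.4, 58.5 and 65.1 on imatinib (log2 fold change 0.32, adjusted p = 0.0836). Every imatinib library was above every vehicle library for both. Scaled to CD3 counts they turned to -0.36 and -0.39, still above the median of all genes on that scale. Zfp207 (BuGZ), which binds spindle microtubules and kinetochores, was at 126 ± 13.8 and 128 ± 7.79 CPM (log2 fold change 0.02, adjusted p = 0.917). Zfp91, a ubiquitin ligase of the noncanonical NF-κB pathway, was at 73.3 ± 5.09 and 61.2 ± 6.44 (log2 fold change -0.26, adjusted p = 0.162).

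Per kilobase of exon, the level of the members ranged from 0.731 to 26.8 CPM. The highest were Zfp869 at 26.8, Zfp740 at 22.4, Zfp691 at 21.5, Zfp993 at 20.9, Zfp207 at 19.0 and Zfp710 at 18.6 CPM per kb, and of these only Zfp691 fell. Zfp740 was at 109, 121 and 114 CPM on vehicle and 111, 111 and 119.7 on imatinib (log2 fold change -0.0084, adjusted p = 0.963). Zfp869 was at 45.9 ± 4.60 and 39.2 ± 4.94 CPM (log2 fold change -0.23, adjusted p = 0.284). Zfp710 varied within the imatinib group, at 63.0, 140 and 104 CPM against 166, 145 and 153 on vehicle (log2 fold change -0.60, SE 0.26, adjusted p = 0.17). Zfp993 narrowly missed the threshold (log2 fold change -0.44, adjusted p = 0.0502), and 86.8% of its 50-base windows also occur in other genes.

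Lower genes were found in each structural class of the proteins. The share of lower genes was 17.2% over all Zfp genes and 11.3% over genes at the same minimum of 10 CPM. A match to the KRAB signature was found in 57 members, of which 9 (15.8%) fell, with a median log2 fold change of -0.19. Of the 87 without a match, 16 (18.4%) fell, with a median of -0.18. Of 26 members with 0 to 3 fingers 6 (23.1%) fell, of 54 with 4 to 9 fingers 9 (16.7%) and of 64 with 10 or more 10 (15.6%). Their medians were -0.16, -0.14 and -0.23. Zfp142, with 36 fingers the largest array, did not pass the test (log2 fold change -0.36, adjusted p = 0.131).

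Many Zfp genes lie in clusters, and 64 members lay within 500 kb of another one. Of these 11 (17.2%) fell, against 14 of 80 (17.5%) that stood alone, with a median of -0.18 in both. The share was 17.2% over all Zfp genes and 11.3% over genes at the same minimum. The largest of the 21 groups held 8 genes on chromosome 7 from 127233061 to 127885996. Of these Zfp629 fell (log2 fold change -0.60, adjusted p = 0.0209), and Zfp646, Zfp553, Zfp668, Zfp768, Zfp688, Zfp747 and Zfp764 did not pass the test, with log2 fold changes from -0.28 to 0.22. In the group of 6 on chromosome 6 from 47835661 to 48445825, Zfp398 fell, and Zfp746, Zfp777, Zfp282, Zfp467 and Zfp212 did not pass the test (-0.16, -0.34, -0.37, -0.18 and 0.14). A single gene fell in each of these largest groups, counts too small to set against the share of all Zfp genes.

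Level and transcript length went with the calls. By mean level, 1 of the 49 lowest, 8 of the 47 middle and 16 of the 49 highest members fell, with medians of -0.10, -0.22 and -0.28, and the median standard error shrank from 0.19 through 0.15 to 0.12. By length of the longest transcript, 4 of the shortest 48, 7 of the middle 48 and 14 of the longest 48 fell, with medians of -0.15, -0.12 and -0.29. Across genes, which are not independent replicates and share these libraries, the log2 fold change had a Pearson r of -0.12 and a Spearman rho of -0.16 with log2 transcript length over 144 Zfp genes, and -0.27 and -0.30 over 9307 genes of at least 10 CPM. The median transcript was 4080.5 bases among Zfp genes and 3384 among those genes. The part of length in the Zfp result was not tested beyond the fit given above with its trend removed.

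**Figure D4:**
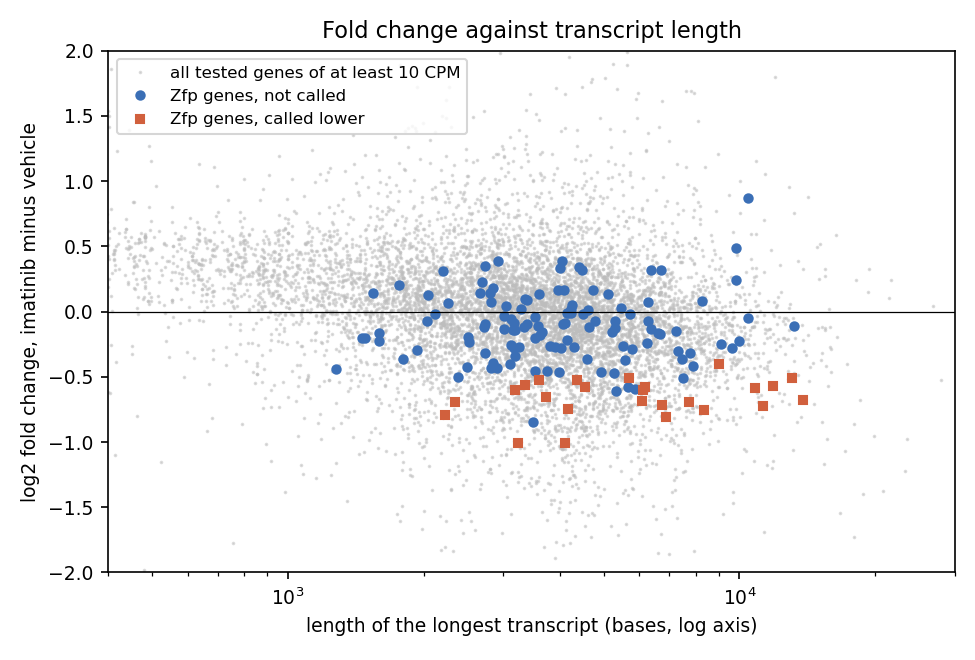
Log2 fold change of imatinib minus vehicle (vertical axis) against the length of the longest annotated transcript (bases, log axis) for all tested genes of at least 10 CPM (grey), Zfp genes not called (circles) and Zfp genes called lower (squares), with values beyond the axes not drawn. The grey cloud slopes down with length (Spearman rho -0.30), and the called Zfp genes lie mostly toward the longer transcripts, 14 of 25 among the 48 longest.

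Some members share sequence with related genes, so that reads may be split between them. In 20 members at least 20% of 50-base windows occur in another gene, and in 6 at least 20% of exon bases are overlapped on the other strand. Of the lower genes these include Zfp992 (43.7% of windows shared) and Zfp90 (92.3% of windows shared and 79.5% overlapped antisense), and the values of both are uncertain. Zfp276, Zfp704 and Zfp26 are overlapped antisense in 19.4%, 16.6% and 14.2% of exon bases. Zfp968 and Zfp969 share all of their windows, and neither was called (adjusted p = 0.519 and 0.518). Among the 103 members with under 5% of windows shared 18 fell and 0 rose.

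Other zinc finger families at the same minimum of 10 CPM gave the following counts, beside 11.3% lower and 8.57% higher of all genes at that minimum. Of 30 Zbtb genes, whose products join fingers to a BTB dimerization domain, 6 fell and 0 rose, with a median of -0.22. Zbtb37 fell from 20.1, 23.8 and 21.4 CPM to 9.72, 5.05 and 9.94 (log2 fold change -1.40, adjusted p = 0.0132). Zbtb21, Zbtb34 and Zbtb43 had log2 fold changes of -0.99, -0.89 and -0.71 and fell too. Without vehicle 2 the count of Zbtb genes was 0, without vehicle 3 it was 2, and without vehicle 1, imatinib 1 or imatinib 3 it was 4. Over all genes the lower calls in these fits were 507, 503, 627, 1009 and 579, against 1399 with all libraries. Zkscan3 was the lower 1 of 6 Zkscan genes (log2 fold change -0.72) and Zscan26 the lower 1 of 5 Zscan genes (-0.86), whereas Zkscan17 and Zscan29 did not pass the test (0.20 and -0.34). Of 13 Klf and Sp genes 0 were called by edgeR (at an unadjusted p under 0.05, 0 lower and 2 higher, with 1 higher by DESeq2 and 1 by voom), with a median of -0.07, Klf6 at -0.15 and Klf13 at -0.10. Of 3 Ikzf genes 0 were called by edgeR (1 higher at an unadjusted p under 0.05 and 1 by DESeq2), with Ikzf1 at -0.05 and Ikzf3 at 0.79 (adjusted p = 0.0800). Of 11 Zc3h genes, whose fingers bind RNA, only Zc3h7a was lower, named after its value was seen (log2 fold change -1.45, adjusted p = 0.00518), with Zc3h4 and Zc3h18 at -0.08 and -0.31.

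Among 21 genes of the KRAB co-repressor machinery, 1 fell and 1 rose (4.76% each), around a median of 0.03. Of genes of at least 10 CPM, 11.3% were lower and 8.57% higher. Trim28, which KRAB domains bind, was at 193, 160 and 168 CPM on vehicle and 163, 156 and 168 on imatinib, with overlapping groups (log2 fold change -0.10, adjusted p = 0.587). Setdb1, its methyltransferase partner, fell from 54.3, 64.2 and 55.9 CPM to 32.3, 34.0 and 34.3 (log2 fold change -0.79, SE 0.11, adjusted p = 0.00675). Cbx3, a heterochromatin protein, rose from 80.3 ± 6.41 to 112 ± 13.6 CPM (SD, n = 3, log2 fold change 0.49, adjusted p = 0.0332). The call of Cbx3 was lost in 5 of the 6 fits without 1 library (adjusted p from 0.0623 without imatinib 2 to 0.132 without vehicle 1, against 0.0491 without imatinib 3) and with library totals (adjusted p = 0.0608). Scaled to CD3 counts Cbx3 lay at -0.24, above the median of -0.72 that all genes had on that scale. The histone deacetylases Hdac1 and Hdac2 and the SETDB1 cofactor Atf7ip were at 0.05, 0.03 and 0.0013 on the log2 scale and did not pass the test.

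Of 12 tested genes listed under H3K9 methylation and the HUSH silencing complex, 4 fell and 0 rose, with a median of -0.30 and all 12 below 0. Of the 4, only Tasor is a HUSH subunit, and none is a methyltransferase. Of all genes tested, 8.42% were lower and 48.8% lay below 0, and this list was not held to the minimum of 10 CPM. Among genes at that minimum the shares were 11.3% and 50.3%. Morc2a, an ATPase that works with HUSH, was at 62.8, 64.5 and 66.3 CPM on vehicle and 33.6, 36.9 and 34.3 on imatinib (log2 fold change -0.89, adjusted p = 0.00393). Tasor, the scaffold of HUSH, fell from 29.3, 33.8 and 30.3 CPM to 16.7, 11.2 and 19.9 (log2 fold change -0.96, adjusted p = 0.0194). Morc3 and the histone chaperone Daxx fell as well (log2 fold changes -0.82 and -0.81). The other HUSH subunits, Mphosph8 and Pphln1, did not pass the test (-0.22 and -0.02), nor did the methyltransferases Ehmt1, Ehmt2, Suv39h1 and Suv39h2 (-0.17, -0.05, -0.27 and -1.23). In the fits without 1 library each, 3 to 5 of the 12 were lower, and Setdb1 was lower in all 6.

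**Figure D5:**
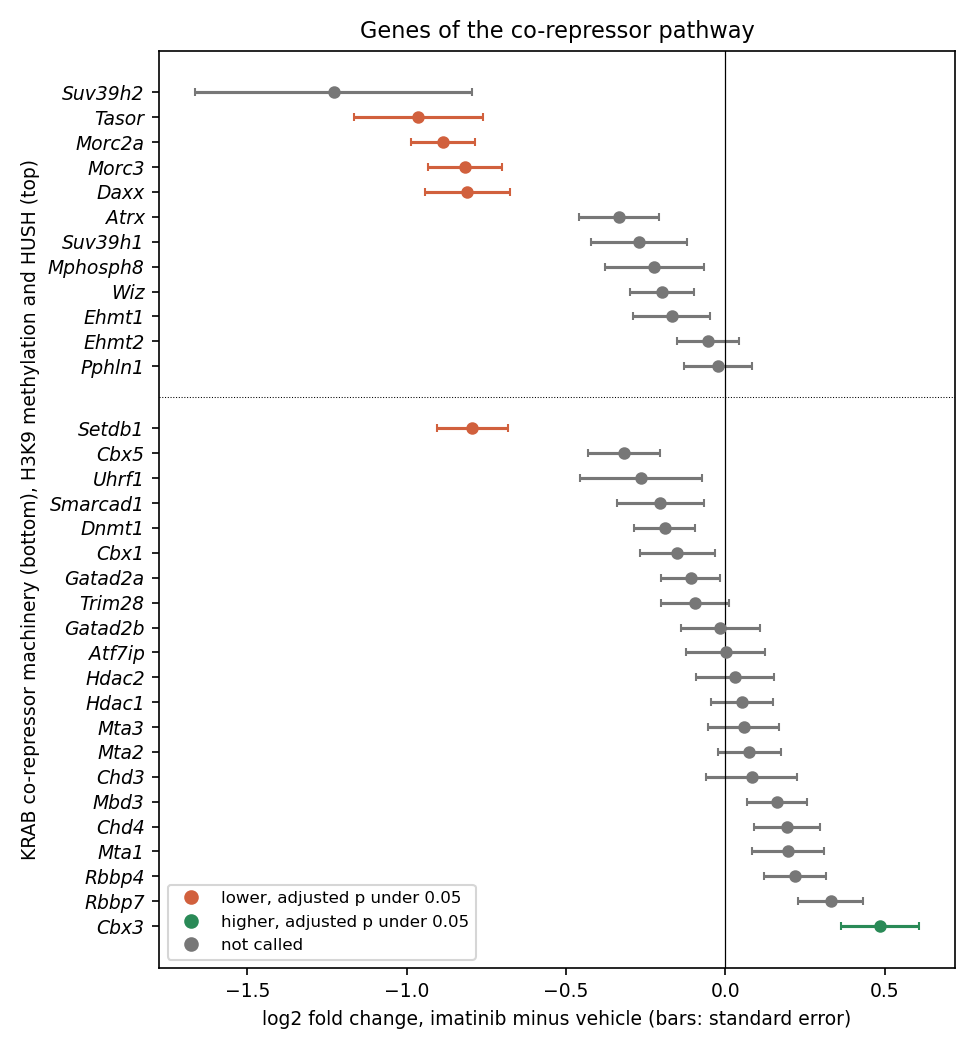
Log2 fold change of imatinib minus vehicle with its standard error (horizontal axis) for 21 genes of the KRAB co-repressor machinery (bottom) and 12 listed under H3K9 methylation and HUSH (top), with calls at an adjusted p under 0.05 in colour. Setdb1, Tasor, Morc2a, Morc3 and Daxx lie between -0.96 and -0.79, while Trim28 lies at -0.10 and Cbx3 at 0.49.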

How the data were processed

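RNA-seq read counts per gene were taken from the table the authors deposited. Per the study, reads were aligned with STAR to the mouse genome (mm10, GRCm38) and counted with featureCounts. Annotation, strand setting and handling of multiply matching reads: not given in the sources used here. The 3016 rows without a gene name (0.118% to 0.158% of counts) were dropped, 1013 exact repeats counted once and 78 symbols summed, leaving 53153 symbols. The table also has 3 columns of no sample analysed, left unread. Pairs of libraries within a group differed by more than sampling noise (chi-square of 36.3 or more per gene) and each counts as 1 sample.

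Tests were made in edgeR 4.0.16 (R 4.3.3), with its default low-count filter (16621 genes kept), TMM scaling and robust quasi-likelihood tests, with Benjamini-Hochberg adjustment over all genes. The Zfp genes, gene lists and tests were chosen with earlier results of these data known. The lists of cell type markers, co-repressors and roles were written from general knowledge. Genes were named by rule: the 6 highest levels per kb, the 10 called genes of smallest p in each direction (none was called higher), the 2 genes on either side of the minimum, up to 6 per role, up to 4 called genes per list or otherwise the 2 highest, and the 2 largest clusters. Genes outside it were chosen after their values were seen: Zfp142, Zfp703, Zfp330, Zfp839, Zfp451, Zfp26, Zfp513, Zfp516, Zfp992, Zfp608, Zfp639, Zfp715, Zfp90, Zfp462, Zfp968, Zfp969, Zc3h7a and the remaining co-repressor, HUSH and marker genes. GENCODE M21 gave positions, lengths and coding sequences for 144 of the 145 genes. A KRAB match needed 8 of 14 conserved positions, a minimum set after seeing the scores, and may miss divergent domains. Promoters came from RefSeq.

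Alternatives tried were library totals, RLE factors, no filter or a mean CPM of at least 1, DESeq2 1.42.0, limma 3.58.1 voom, a block for replicate number, omission of each library in turn, CD3 scaling, removal of length and GC trends, a fold change threshold, all rows kept and other minimums. Testing only genes of at least 10 CPM and counting only genes with under 5% of windows shared were added after seeing the data. The scripts were tested on simulated data. Python 3.11.15, pandas 2.3.3 and matplotlib 3.10.9 were used.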

Additional observations from a re-analysis of the deposited data

How the results depend on the processing

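The lower direction of the Zfp median held in every alternative run, from -0.90 with CD3 scaling to -0.11 with length and GC trends removed, with -0.22 for library totals, and it was -0.28 for the 87 genes of at least 20 CPM. Leaving out 1 library gave medians from -0.23 to -0.17, 7 to 28 lower and 0 to 2 higher Zfp genes, and 503 to 1780 lower and 182 to 1171 higher genes of all tested. With length and GC trends removed 15 Zfp genes were lower and 1 higher, beside 973 lower and 908 higher of all genes. With CD3 scaling 75 were lower, beside 4678 lower and 135 higher of all genes. A fold change beyond 1 in addition to the adjusted p left 2 Zfp genes lower, and 540 lower and 304 higher of all. A mean CPM of at least 1, DESeq2, voom and the test limited to genes of at least 10 CPM each gave 1 higher Zfp gene, with 28, 29, 28 and 28 lower. Of all genes, 1465, 1966, 1661 and 1240 were lower and 1012, 1438, 1281 and 984 higher in the same order. With CD3 scaling, which moved the median of all genes to -0.72, Cbx3 lay at -0.24. For the Zfp genes named, apart from Zfp142, Zfp703, Zfp330, Zfp968 and Zfp969, 778 of 918 further values kept their direction and side of the threshold. Another 21 changed direction without a call in either fit, 95 lost the call and 24 gained it. The 918 values pool called and uncalled genes, and only the called ones could lose a call, so they do not measure how stable the calls were. With the replicate number as a block, 7 Zfp genes were lower, all among the 25, beside 437 lower and 173 higher of all genes. Same-numbered libraries deviated with correlations of -0.21, -0.057 and -0.064, beside -0.11 to 0.18 for the other pairs. With 3 libraries per group these values cannot decide whether the numbers pair the samples, which the labels do not state. The cause of these shifts was not tested. The median SE was 0.19 over the 49 least expressed Zfp genes and 0.12 over the 49 highest, with median log2 fold changes of -0.10 and -0.28.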
